A study of Mus musculus with 24 samples.

Results

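The genes described here encode the pore-forming and auxiliary subunits of potassium channels, voltage-gated sodium and calcium channels and hyperpolarization-activated HCN channels in the embryonic mouse cochlea. Members were chosen by gene name alone: every Ensembl gene whose symbol carries a Kcn, Scn, Cacna1, Cacna2d, Cacnb, Cacng or Hcn family name, which gave 136 of the 53946 genes in the count table, in 14 families. The name rule uses no measured value, but the families were picked with earlier results of these data known. Potassium channels set the resting potential and end the action potential, sodium channels start it, calcium channels couple it to transmitter release and transcription, and HCN channels carry a current that opens on hyperpolarization. In the mature cochlea these genes are known for the potassium cycle of the endolymph, for the receptor potential of hair cells and for spiking in spiral ganglion neurons. The Cacng family is named for a calcium channel subunit, but several of its members are better known as TARPs, which traffic AMPA-type glutamate receptors.

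RNA came from ventral otocysts, the part of the inner ear that holds the cochlea, dissected at embryonic day 14.5 from mice of strain C57BL/6J x 129X1/SvJ. Mut embryos were Fgf20-/- and lacked the growth factor FGF20, which the prosensory epithelium needs to form its full set of hair cells and supporting cells. Het embryos were Fgf20+/-, so that every library came from embryos with at least 1 mutant allele and no wild-type group was analysed here. TRAP (translating ribosome affinity purification) libraries were made from ribosomes carrying the L10a-eGFP protein, pulled down with an antibody against GFP; the tagged protein was expressed in cells with a history of Fgf20-Cre activity. Pre-TRAP is taken here to mean RNA sampled ahead of the pull-down; the extraction text in the labels is the same for TRAP and pre-TRAP. Each library pooled 3 to 7 embryos of 1 genotype. The 4 groups were TRAP mut (n = 8), TRAP het (n = 8), pre-TRAP mut (n = 4) and pre-TRAP het (n = 4), and each was divided evenly between experiment 2 and experiment 1, which the labels call batches. Whether TRAP and pre-TRAP libraries share pools of embryos is not stated in the labels.

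Total counts per library ranged from 30745166 to 53374796, of which 0.01721% to 0.06404% fell on the 136 channel genes. Fgf20 itself averaged 2.24 ± 0.729 CPM (counts scaled to a common library total, with TMM factors) in TRAP mut against 4.19 ± 0.978 CPM in TRAP het libraries (SD, n = 8 each), and 0.236 ± 0.0689 CPM in pre-TRAP mut against 0.885 ± 0.584 CPM in pre-TRAP het libraries (SD, n = 4 each). Counts per gene do not show which part of the mutant transcript was read. Markers of the labelled tissue were present: the summed level of 11 prosensory markers spanned 757 to 1113 CPM in TRAP and 346 to 477 CPM in pre-TRAP libraries. For 10 otic epithelium markers the sums were lower in TRAP, at 488 to 677 CPM against 739 to 1159 CPM. Neuron markers were also abundant in TRAP RNA, at a summed 3857 to 7495 CPM over 16 genes, against 717 to 1145 CPM in pre-TRAP RNA. TRAP libraries differed among themselves in periotic mesenchyme RNA. The 4 with the most (TRAP mut libraries 4 and 6, TRAP het libraries 3 and 5) had 571 to 1269 CPM over 13 markers, the other TRAP libraries 287 to 513 CPM and the pre-TRAP libraries 1027 to 1515 CPM. Counts of calls that rest on TRAP libraries are given with and without those 4. None of the markers of the 14 cell type lists was without a count in every TRAP library.

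All channel genes summed to 474 CPM at the median TRAP mut library (392 to 559) and 484 CPM at the median TRAP het library (347 to 593), against 235 CPM (218 to 252) in pre-TRAP mut and 263 CPM (208 to 296) in pre-TRAP het libraries. In this sum every TRAP library lay above every pre-TRAP library. It weighs abundant genes most, and not every family followed it. The Cacnb and Cacna2d genes summed to 97.3 to 218 CPM in TRAP and 39.2 to 77.7 CPM in pre-TRAP libraries. The Kcnk genes summed to 7.71 to 16.3 CPM in TRAP and 17.3 to 23.3 CPM in pre-TRAP libraries. For the Kcnj genes the sums were 6.42 to 13.4 CPM and 9.98 to 12.3 CPM. Of the 136 genes, 1 (Kcnk15) had no count in any library, 90 were counted in every library, and 26 with at most 78 counts in all were too low to test in any comparison. In bulk RNA, fewer cells of a type and less RNA per cell cannot be told apart.

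**Figure D1:**
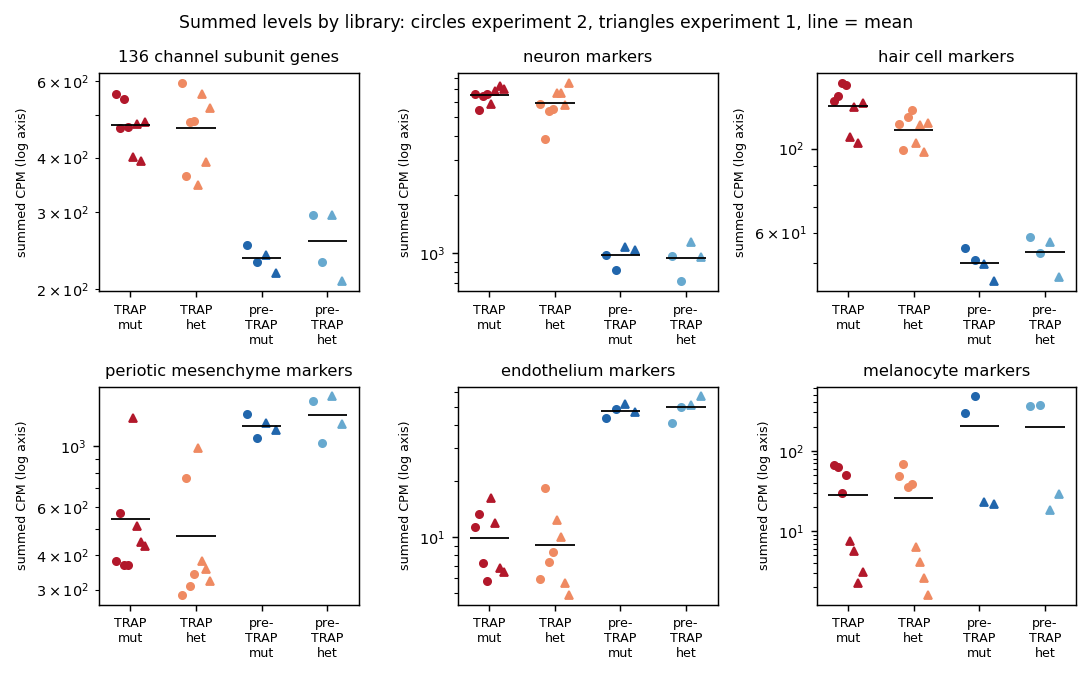
Summed CPM per library (log axes) of the 136 channel genes and of 5 marker lists, in the TRAP mut, TRAP het, pre-TRAP mut and pre-TRAP het groups. Points are libraries, circles from experiment 2 and triangles from experiment 1, and lines are means. Channel and neuron sums of all TRAP libraries lie above those of all pre-TRAP libraries, and melanocyte sums separate the experiments.

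The comparison of TRAP with pre-TRAP asked which channel transcripts the tagged ribosomes held more or less of than the RNA before purification. Of the 110 channel genes tested, 60 were higher in TRAP (54.5%), 21 were lower (19.1%) and 29 were not called, at an adjusted p under 0.05 in edgeR's quasi-likelihood test. Over all 24242 genes tested, 27.9% were called higher and 31.2% lower, 59.1% in all. The median log2 fold change was 0.70 over the channel genes and -0.01 over all genes. Without the 4 libraries richest in mesenchyme RNA, 58 were higher and 22 lower. A gene can pass the filter on low counts through the RNA kind in which it is high. Of the 93 genes that passed within TRAP libraries and also within pre-TRAP libraries, 52 were higher and 19 lower. Of the 7 that passed within TRAP libraries and not within pre-TRAP libraries, 5 were higher and none lower, Kcnj12 and Scn4b among them. Another 4 passed within pre-TRAP libraries and not within TRAP libraries, of which 2 were lower, Kcng2 and Kcnj13. A further 6 passed only over all libraries, of which 3 were higher (Kcna10, Cacna2d4 and Kcnj5) and none lower. Family counts below include genes that did not pass within both kinds of RNA. These 3 had at most 3 (Kcna10), 3 (Cacna2d4) and 1 (Kcnj5) counts in any pre-TRAP library. Their highest TRAP libraries had 21, 19 and 11 counts, so TRAP libraries carried them past the filter. Genes that passed through the RNA kind in which they are high, these 3 included, had to differ, so their fold changes are descriptions.

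Markers of several cell types moved with this comparison. All 16 neuron markers were higher in TRAP, with a median log2 fold change of 2.64, as were 9 of the 11 hair cell markers (median 2.88) and 9 of the 11 prosensory markers (median 1.28). Of the 13 periotic mesenchyme markers 11 were lower (median -2.13), and so were all 8 endothelium markers (median -2.24), 7 of 8 erythroid markers (median -2.85), all 7 melanocyte markers (median -2.63) and 6 of 7 macrophage markers (median -2.62). Other lists were divided. Otic epithelium had 6 of 9 tested markers higher and 2 lower (median 0.60). Schwann cells and glia had 4 of 9 higher and 5 lower (median -0.96), and roof and stria precursors 2 of 6 higher and 4 lower (median -0.84). The part of all these cell types in the channel results was not tested.

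**Figure D2:**
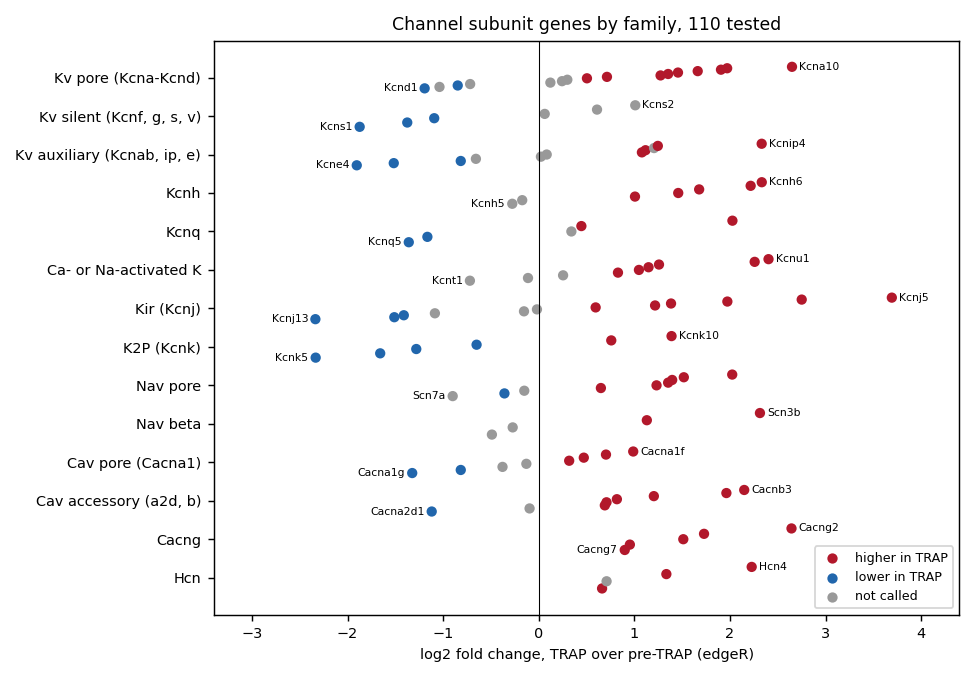
Log2 fold change of TRAP over pre-TRAP (horizontal axis, edgeR) for the 110 tested channel genes, 1 point a gene, by family. Red points are called higher, blue points lower and grey points not called, and names are given for some of the extreme genes. All 5 tested Cacng genes are called higher, and no silent Kv gene is.

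Promoters were read for genes at both ends of this comparison. The 250 bases before the annotated start, on the gene's own strand, came from RefSeq (GRCm38.p6), where 99 of the 136 genes had an entry. Kcnh6 (chr11:106007898-106008147, plus strand) is shown because it alone of the 99 held TTCAGCACC, the left part of the RE1 element bound by REST; Cacng2 (chr15:78119281-78119530, minus strand) and Kcnk5 (chr14:20181783-20182032, minus strand) because they stood near the ends of the fold changes; and Kcnj13 (chr1:87394730-87394979, minus strand), chosen after its values were seen, because it had a log2 fold change of -2.34, having passed the filter through pre-TRAP libraries alone, and held a TATA box. Capitals mark TTCAGCACC, the GC box GGGCGG and the TATA box TATAAA, on either strand.
Kcnh6: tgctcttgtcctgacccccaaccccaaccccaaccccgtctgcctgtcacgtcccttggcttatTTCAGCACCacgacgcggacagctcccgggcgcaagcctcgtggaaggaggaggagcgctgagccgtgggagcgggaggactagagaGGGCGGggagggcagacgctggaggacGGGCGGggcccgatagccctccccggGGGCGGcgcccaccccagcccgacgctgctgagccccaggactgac
Cacng2: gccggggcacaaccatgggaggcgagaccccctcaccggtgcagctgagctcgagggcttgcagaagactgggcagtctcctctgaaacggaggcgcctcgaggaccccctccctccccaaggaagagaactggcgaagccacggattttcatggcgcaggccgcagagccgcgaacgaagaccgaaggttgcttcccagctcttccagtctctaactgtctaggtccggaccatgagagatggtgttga
Kcnk5: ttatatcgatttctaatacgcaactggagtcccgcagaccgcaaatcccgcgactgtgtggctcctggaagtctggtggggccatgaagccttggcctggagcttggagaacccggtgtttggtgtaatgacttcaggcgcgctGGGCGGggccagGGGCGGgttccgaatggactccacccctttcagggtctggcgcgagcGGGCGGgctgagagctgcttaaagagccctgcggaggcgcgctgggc
Kcnj13: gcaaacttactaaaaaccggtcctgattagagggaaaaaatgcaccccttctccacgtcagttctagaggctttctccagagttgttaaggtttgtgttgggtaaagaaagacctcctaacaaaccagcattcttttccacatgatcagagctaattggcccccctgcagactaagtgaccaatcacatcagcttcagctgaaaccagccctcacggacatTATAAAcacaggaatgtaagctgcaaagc

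Motifs were counted by gene, a gene counting when any of its promoters held the letters, and 24 of the 99 channel genes had several promoters. The GC box was found in 62.8% of the 43 genes called higher in TRAP that had an entry. It was found in 56.2% of the 16 called lower, against 35.4% of all 27025 genes with an entry. TATAAA was found in 5.05% of the channel genes and 14.3% of all. TTCAGCACC was in 0.348% of all promoters, and the cAMP response element TGACGTCA in 0 of the 99 channel promoters and 1.77% of all. Both strands were searched for exact letters, so near matches were not counted. In the Kcnh6 sequence shown, letters close to the right part of RE1 follow the left part. Matches of different motifs can share letters. For CG steps, the promoter with the most was taken for each gene, so that genes with several entries could score higher. The median was 12 among the genes called higher, 15.5 among those called lower and 6 among all genes. A match is a description of the letters and not a binding site, and these windows do not cover the rest of a gene's regulatory sequence.

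Among the accessory subunits of calcium channels, 6 of 8 tested genes were higher in TRAP and 1 was lower. Cacna2d4, among the higher, passed the filter only over all libraries, through its TRAP counts. Cacnb3, the β3 subunit that brings high-voltage-activated calcium channels to the membrane, ranged from 72.2 to 186 CPM (median 124) in TRAP libraries, against 13.4 to 40.5 CPM (median 29.6) in pre-TRAP libraries. The groups did not overlap. The log2 fold change was 2.15 ± 0.17 (SE; 4.43-fold, adjusted p = 3.09e-11). Cacnb4, another β subunit, had 4.59 to 9.13 CPM (median 6.15) in TRAP and 2.23 to 4.03 CPM (median 2.67) in pre-TRAP libraries, again without overlap (1.20 ± 0.11, adjusted p = 8.50e-10). Cacnb2, the β subunit of hair cell calcium channels, did not pass (-0.10 ± 0.17, adjusted p = 0.657). Of the α2δ subunits, which raise surface expression, Cacna2d1 moved the other way. It had 4.90 to 13.7 CPM (median 8.02) in TRAP libraries against 14.2 to 25 CPM (median 17.2) in pre-TRAP libraries, without overlap, a log2 fold change of -1.12 ± 0.15 (adjusted p = 2.86e-07). Cacna2d2 (0.71) and Cacna2d3 (0.69) were higher.

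Among the 8 pore-forming Cacna1 genes tested, 4 were higher and 2 lower, with a median log2 fold change of 0.09. Cacna1e, the R-type channel, was higher by 0.70 ± 0.15 (adjusted p = 0.000333), and Cacna1b, the N-type channel of presynaptic terminals, by 0.32 ± 0.12 (adjusted p = 0.0234). Cacna1g, a T-type channel that opens at low voltage, ranged from 0.272 to 3.22 CPM (median 1.70) in TRAP and from 2.12 to 6.09 CPM (median 4.35) in pre-TRAP libraries. Of its 16 TRAP values 12 lay below every pre-TRAP value (-1.32 ± 0.25, adjusted p = 6.38e-05). Cacna1c, the L-type channel of heart and smooth muscle, was also lower (-0.82 ± 0.17, adjusted p = 0.00018). Cacna1d, the L-type channel through which inner hair cells release transmitter, had 0.774 to 2.85 CPM (median 1.45) in TRAP and 1.54 to 2.97 CPM (median 1.79) in pre-TRAP libraries and did not pass (-0.38 ± 0.19, adjusted p = 0.0845). Its adjusted p was between 0.0117 and 0.0491 in 6 of the other settings, among them limma voom (0.0117), experiment 1 alone (0.0229) and without the mesenchyme-rich libraries (0.0464).

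All 5 tested Cacng genes were higher, with a median log2 fold change of 1.51. Cacng2, which encodes stargazin, the founding TARP, had 6.03 to 17.8 CPM (median 12.2) in TRAP against 1.18 to 2.95 CPM (median 1.69) in pre-TRAP libraries. Its groups did not overlap, and the log2 fold change was 2.64 ± 0.21 (6.25-fold, adjusted p = 2.74e-11). Cacng4 had 18.1 to 50.8 CPM (median 28.1) in TRAP and 7.87 to 20.6 CPM (median 9.52) in pre-TRAP libraries (1.51 ± 0.20, adjusted p = 3.52e-07). Cacng5 rose by 1.73, Cacng8 by 0.95 and Cacng7 by 0.90 on the log2 scale. The other 3 Cacng genes were too low to test.

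**Figure D3:**
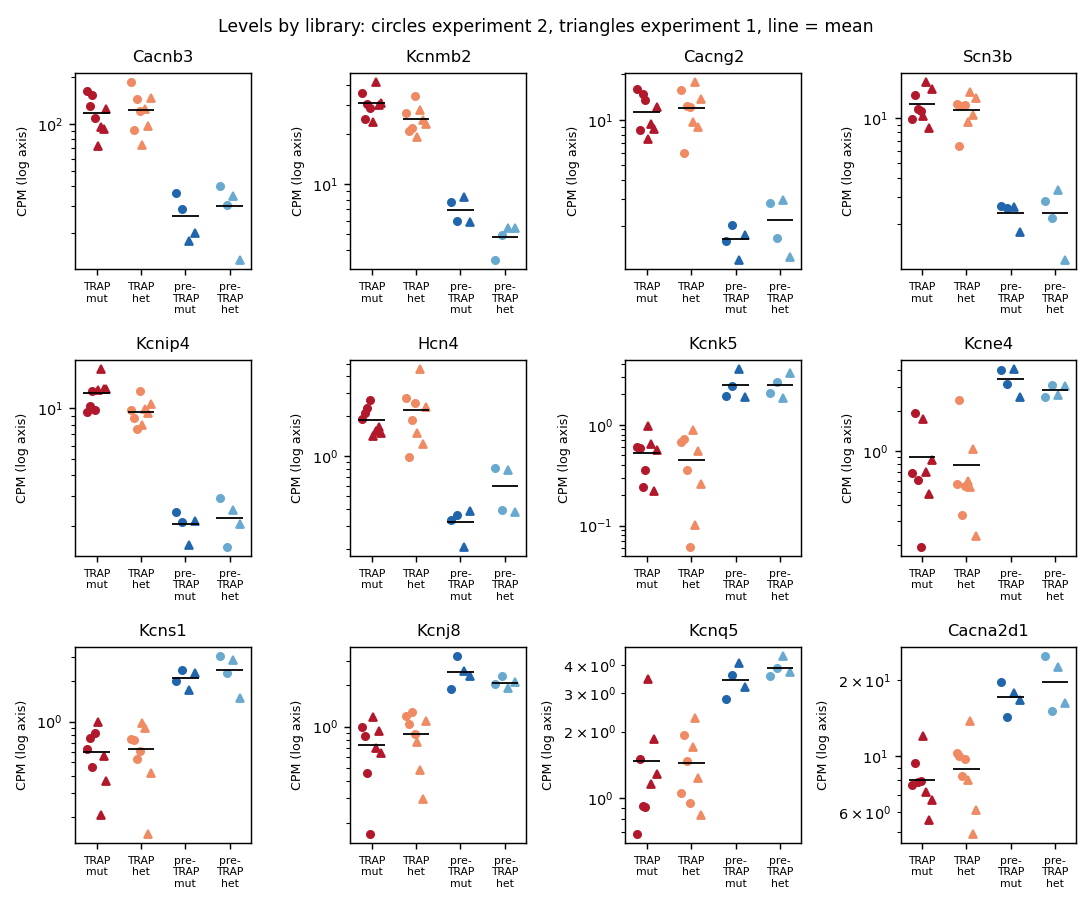
CPM per library (log axes) of 6 genes called higher and 6 called lower in TRAP, in the TRAP mut, TRAP het, pre-TRAP mut and pre-TRAP het groups. Points are libraries, circles from experiment 2 and triangles from experiment 1, and lines are means. For each gene drawn but Kcnq5, the TRAP and pre-TRAP values do not overlap. The genes were picked from the named genes with the largest changes. Other called genes that are not drawn, among them Cacna1g, Kcnd1 and Kcnj2, do overlap. Overlap was not counted over all genes.

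Of the 9 sodium channel α genes tested, 6 were higher in TRAP and 1 lower, with a median log2 fold change of 1.23. Scn10a, among the higher, passed the filter through TRAP libraries alone. Scn3a, the α subunit known from embryonic neurons, had 5.30 to 13.6 CPM (median 8.17) in TRAP and 2.15 to 5.75 CPM (median 2.98) in pre-TRAP libraries (1.40 ± 0.18, adjusted p = 2.50e-07). Scn9a, the channel of peripheral sensory neurons, had 4.36 to 10.3 CPM (median 6.48) in TRAP against 1.86 to 3.61 CPM (median 3.10) in pre-TRAP libraries, without overlap (1.23 ± 0.15, adjusted p = 1.01e-07). Scn8a, the main sodium channel of mature nodes of Ranvier, was lower by a small margin (-0.36 ± 0.15, adjusted p = 0.0445), and this call was lost when any of 14 libraries was left out in turn (adjusted p up to 0.192).

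Scn3b was the most changed of the β subunits, the single-pass proteins that anchor sodium channels and shift their gating. It had 6.51 to 17.2 CPM (median 11.7) in TRAP against 1.15 to 3.31 CPM (median 2.55) in pre-TRAP libraries. No value was shared between the groups, and the log2 fold change was 2.31 ± 0.18 (4.97-fold, adjusted p = 3.34e-11). Scn4b, at under 1 CPM, had a log2 fold change of 1.13 and passed the filter through TRAP libraries alone, where it is high. Scn2b did not pass and had 3.71 to 24.0 CPM (median 8.23) in TRAP and 7.22 to 23.7 CPM (median 11.2) in pre-TRAP libraries (-0.27 ± 0.20, adjusted p = 0.247).

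Of 16 pore-forming Kv genes from the Kcna, Kcnb, Kcnc and Kcnd families, 9 were higher in TRAP and 2 lower. Kcna6 had 12.6 to 32.5 CPM (median 16.0) in TRAP against 4.62 to 12.2 CPM (median 6.57) in pre-TRAP libraries, without overlap (1.35 ± 0.19, adjusted p = 1.06e-06). Genes of the Kcnc family, whose channels let neurons fire at high rates, were higher by log2 fold changes of 1.97 (Kcnc1), 1.46 (Kcnc2) and 1.91 (Kcnc4). The Kcnd genes, which carry A-type currents, went down or did not pass. Kcnd1 had 0.406 to 1.42 CPM (median 0.780) in TRAP and 1.30 to 2.41 CPM (median 1.70) in pre-TRAP libraries, with 15 of 16 TRAP values below every pre-TRAP value (-1.19 ± 0.19, adjusted p = 6.22e-06). Kcnd3 was lower by 0.85 on the log2 scale, and Kcnd2 did not pass (-1.04 ± 0.45, adjusted p = 0.0515). Kcna10, a hair cell potassium channel, was scarce, with 0.0248 to 0.498 CPM (median 0.124) in TRAP and at most 0.0619 CPM (median 0) in pre-TRAP libraries (log2 fold change 2.65 ± 0.66). It passed the filter only over all libraries, through its TRAP counts, so this value is a description.

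The partners of the Kcnd channels did not move together. Kcnip4, a calcium-sensing KChIP subunit, had 7.48 to 17.1 CPM (median 10.1) in TRAP against 1.49 to 2.93 CPM (median 2.12) in pre-TRAP libraries, without overlap. Its log2 fold change was 2.33 ± 0.15 (5.03-fold, adjusted p = 3.06e-13), the opposite sign to that of Kcnip1, another KChIP (-1.52 ± 0.31, adjusted p = 0.000137). Kcnip1 had 0.0825 to 1.15 CPM (median 0.419) in TRAP and 0.645 to 2.31 CPM (median 1.14) in pre-TRAP libraries; its span overlaps Kcnmb1 and 6 other annotated genes, and reads of overlapping genes cannot be told apart here. Kcnip2 was higher by 1.12 and Kcnip3 did not pass (0.08). The β subunits Kcnab1 and Kcnab2, cytoplasmic partners of Kv1 channels, were higher by 1.25 ± 0.11 (adjusted p = 1.21e-10) and 1.08 ± 0.14 (adjusted p = 1.75e-07). Kcne4, which inhibits several Kv channels, had 0.192 to 2.41 CPM (median 0.604) in TRAP against 2.54 to 4.09 CPM (median 3.10) in pre-TRAP libraries, without overlap (-1.90 ± 0.31, 3.74-fold lower, adjusted p = 8.75e-06). Kcne3 was lower by 0.82.

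None of the 6 tested silent Kv genes, which cannot form channels alone and modify Kv2 channels, was higher, and 3 were lower. Kcns1 had 0.149 to 0.995 CPM (median 0.619) in TRAP against 1.5 to 3.04 CPM (median 2.28) in pre-TRAP libraries. The groups did not overlap (-1.87 ± 0.23, 3.67-fold lower, adjusted p = 1.31e-07). Kcns3 was lower by 1.09 on the log2 scale. Kcng2, the other of the 3, had a log2 fold change of -1.38 and passed the filter through pre-TRAP libraries alone, where it is high. Of the Kv2 genes that they modify, Kcnb2 was higher by 0.50 ± 0.20 (adjusted p = 0.0301).

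Of the 7 tested Kcnh genes 5 were higher and none lower, with a median log2 fold change of 1.46. Kcnh6 and Kcnh2 encode ERG channels, which close fast and reopen as the membrane repolarizes. Kcnh6 is the gene whose promoter held the left part of RE1. It had 1.67 to 6.15 CPM (median 3.63) in TRAP against 0.166 to 1.52 CPM (median 0.692) in pre-TRAP libraries, without overlap. Its log2 fold change was 2.33 ± 0.28 (5.04-fold, adjusted p = 5.99e-08). Kcnh2 had 0.47 to 3.54 CPM (median 1.21) in TRAP and 0.0955 to 0.623 CPM (median 0.266) in pre-TRAP libraries, with 14 of 16 TRAP values above every pre-TRAP value (2.22 ± 0.32, adjusted p = 9.84e-07). Kcnh7, the other ERG gene, was higher by 1.01 ± 0.14, Kcnh8 by 1.46 ± 0.19 and Kcnh4 by 1.68 ± 0.26.

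The Kcnq genes took opposite directions. Kcnq3, a subunit of the M-current, which holds back repetitive firing of neurons, was higher by 0.45 ± 0.19 (adjusted p = 0.0478). Kcnq5 had 0.685 to 3.48 CPM (median 1.26) in TRAP and 2.83 to 4.42 CPM (median 3.68) in pre-TRAP libraries. All but 1 of its TRAP values lay below every pre-TRAP value (-1.36 ± 0.20, adjusted p = 2.06e-06). Kcnq1, which with Kcne1 secretes potassium into endolymph from the mature stria vascularis, was lower (-1.17 ± 0.29, adjusted p = 0.00126) at a median of 0.300 CPM in TRAP and 0.675 CPM in pre-TRAP libraries. Within experiment 1 alone its change did not pass (-0.84, adjusted p = 0.132), and its span overlaps Kcnq1ot1. Kcne1 did not pass (-0.66 ± 0.46, adjusted p = 0.229).

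Of 9 calcium- and sodium-activated potassium channel genes 6 were higher and none lower. Kcnmb2, a BK channel β subunit that makes the channel inactivate, had 19.3 to 41.4 CPM (median 27.6) in TRAP against 3.44 to 8.32 CPM (median 5.66) in pre-TRAP libraries. The groups did not overlap, and the log2 fold change of 2.26 ± 0.13 (4.78-fold) had the lowest adjusted p among the channel genes, 1.04e-13. The BK pore Kcnma1 was higher by 1.05 ± 0.22 (adjusted p = 0.000187) and Kcnmb4 by 1.26 ± 0.23. Kcnn2, the SK2 channel of the efferent synapse on hair cells, had 0.622 to 2.20 CPM (median 1.27) in TRAP and 0.392 to 0.958 CPM (median 0.550) in pre-TRAP libraries (1.15 ± 0.18, adjusted p = 5.92e-06). Kcnu1, known as the pH-sensitive SLO3 channel of sperm, had 2.10 to 4.33 CPM (median 2.81) in TRAP against 0.198 to 0.801 CPM (median 0.559) in pre-TRAP libraries, without overlap (2.40 ± 0.21, 5.29-fold, adjusted p = 1.44e-10).

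Inward rectifiers (Kcnj genes) were also divided, with 6 of 12 higher and 3 lower. Of the called genes, Kcnj3, Kcnj9 and Kcnj12 passed the filter through TRAP libraries alone and Kcnj13 through pre-TRAP libraries alone. Kcnj5 passed only over all libraries, through its TRAP counts. Those that passed within both kinds of RNA were Kcnj11 and Kcnj16, higher, and Kcnj2 and Kcnj8, lower. Kcnj12 had 0.533 to 2.94 CPM (median 1.04) in TRAP against 0.0282 to 0.510 CPM (median 0.0999) in pre-TRAP libraries, without overlap (log2 fold change 2.75 ± 0.38). It passed the filter through TRAP libraries alone, where it is high, so this value is a description. Its close relative Kcnj2, which like Kcnj12 carries a strongly rectifying resting current, had 0.287 to 2.36 CPM (median 0.926) in TRAP and 2.33 to 3.63 CPM (median 3.36) in pre-TRAP libraries, and 15 of 16 TRAP values lay below every pre-TRAP value (-1.41 ± 0.29, adjusted p = 0.000124). The genes of the ATP-sensitive channels took opposite directions too. Kcnj11, whose channel couples metabolism to excitability in neurons and beta cells, was higher by 1.22 ± 0.19 (adjusted p = 3.98e-06), whereas Kcnj8, its counterpart in vascular smooth muscle and pericytes, was lower. Kcnj8 had 0.165 to 1.29 CPM (median 0.870) in TRAP and 1.89 to 3.28 CPM (median 2.23) in pre-TRAP libraries, without overlap (-1.51 ± 0.23, adjusted p = 3.61e-06). Abcc9, which encodes the sulfonylurea receptor that pairs with Kcnj8, changed by -1.11 ± 0.22 (adjusted p = 9.36e-05). Of the 8 pericyte and smooth muscle markers 7 were lower, with summed levels of 32.2 to 122 CPM in TRAP and 90.0 to 160 CPM in pre-TRAP libraries. The part of these cells in the Kcnj8 change was not tested. Kcnj10, known from the mature stria vascularis and from glia, did not pass (-0.02 ± 0.31, adjusted p = 0.962), and its partner Kcnj16 was higher by 0.59 ± 0.17 (adjusted p = 0.00402), a call lost in experiment 1 alone (adjusted p = 0.199) and in het libraries alone (adjusted p = 0.0917).

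The K2P genes, whose channels carry background leak, went down more often than up: 4 of 6 were lower and 2 higher. Kcnk5, an alkali-sensitive channel of epithelia, had 0.0611 to 0.964 CPM (median 0.550) in TRAP against 1.84 to 3.57 CPM (median 2.25) in pre-TRAP libraries. The groups did not overlap (-2.33 ± 0.29, 5.04-fold lower, adjusted p = 9.57e-08). Kcnk6 (-1.66 ± 0.23), Kcnk2, the mechanically gated TREK-1 (-1.28 ± 0.28), and Kcnk1 (-0.65 ± 0.15) were the others that were lower, and Kcnk10 (1.39 ± 0.24) and Kcnk3 (0.76 ± 0.31) were higher. Of the 14 K2P genes 8 were too low to test.

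Among the HCN genes, Hcn4 and Hcn3 were higher in TRAP. Hcn4, known for the pacemaker current of the heart, had 0.982 to 4.55 CPM (median 1.89) in TRAP against 0.206 to 0.817 CPM (median 0.384) in pre-TRAP libraries, without overlap (2.23 ± 0.26, 4.68-fold, adjusted p = 4.12e-08). Hcn3 was higher by 1.33 ± 0.19 (adjusted p = 8.64e-07). Hcn2 did not pass (0.71 ± 0.34, adjusted p = 0.0758).

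The 81 called genes kept their sign wherever they could be fitted within a batch or genotype: 78 of 78 in experiment 2, 78 of 78 in experiment 1, 79 of 79 in mut libraries and 78 of 78 in het libraries. They were called again in 64 cases in experiment 2, 59 in experiment 1, 65 in mut libraries and 55 in het libraries. These subsets hold part of the same libraries.

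Genes outside the name families that bind or anchor these channels were counted from lists. Of 21 tested binding partners 13 were higher in TRAP and 4 lower (median 1.43). They included Rimbp2, which links calcium channels to the active zone (2.72 ± 0.26), Pex5l, the HCN partner TRIP8b (2.65 ± 0.20), Fgf13, an intracellular FGF that binds sodium channels (2.40 ± 0.12), and the Kv4 partners Dpp6 (1.94 ± 0.14) and Dpp10 (1.43 ± 0.14). Of 10 tested anchors of initial segments and nodes 5 were higher, among them Cntn2 (1.91), Nrcam (1.71) and Nfasc (1.59), and 3 were lower, Gldn (-2.66), Ank2 (-0.96) and Cntnap2 (-0.87). Of 14 tested genes of endolymph ion transport 4 were higher and 4 lower (median 0.16). The list for the repressor of neuronal genes was split, with 2 of 5 tested genes higher and 2 lower (median -0.09). In it Rest, the repressor itself, was lower by 0.41 ± 0.10 (adjusted p = 0.00108), and its corepressor Rcor2 was higher by 1.63 ± 0.31 (adjusted p = 4.93e-05).

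The comparison of mut with het asked whether channel transcripts differ without FGF20. In TRAP RNA, 0 of 100 tested channel genes were called in edgeR, where 0.0742% of all 21577 genes were, 0.0185% higher and 0.0556% lower in mut. At an unadjusted p under 0.05 there were 10 channel genes, 7 higher and 3 lower in mut, or 10.0% of those tested against 3.77% of all genes. DESeq2 and limma voom called 0 too. The median log2 fold change was -0.01 over the channel genes and -0.02 over all genes.

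**Figure D4:**
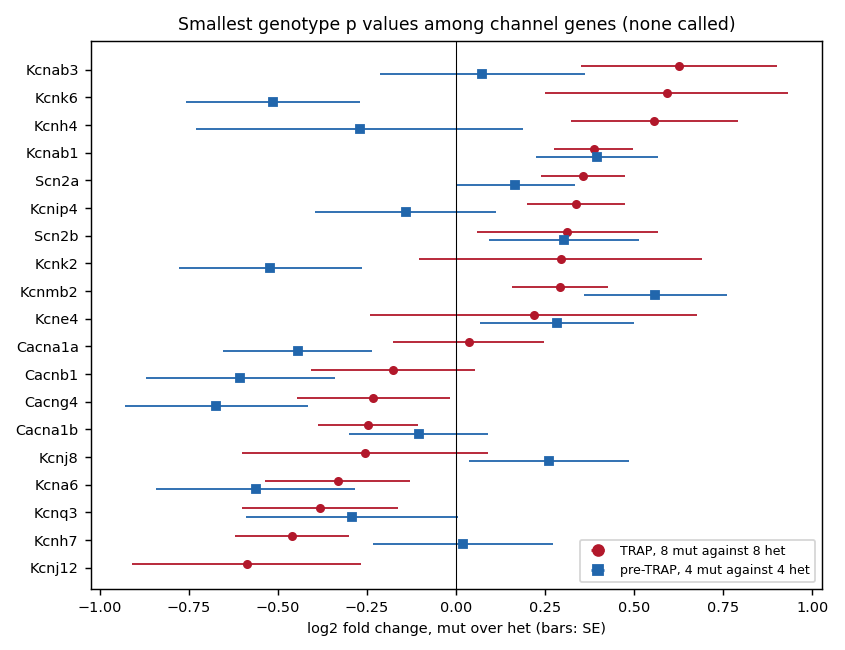
Log2 fold change of mut over het (horizontal axis, edgeR, bars are SE) for up to 5 channel genes a direction with the smallest genotype p values in each kind of RNA, at a mean of at least 1 CPM. Circles are TRAP and squares pre-TRAP libraries. None is called, and Kcnab1, Kcnab3, Kcne4, Kcnmb2, Scn2a and Scn2b lie right of zero in both kinds.

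Kcnab1 came nearest to the threshold. Its 8 TRAP mut libraries had 12.1 to 18.4 CPM (median 14.0) and its 8 TRAP het libraries 8.46 to 14.3 CPM (median 11.0), with overlapping ranges. The log2 fold change was 0.39 ± 0.11 (adjusted p = 0.562; from 0.0989 in DESeq2 to 1.00 over the alternatives). Experiment 2 alone gave 0.37 ± 0.17 and experiment 1 alone 0.43 ± 0.19. In pre-TRAP RNA, Kcnab1 had 6.21, 6.14, 6.46 and 5.99 CPM in mut libraries against 5.53, 4.51, 4.31 and 4.53 CPM in het libraries. These 4 and 4 values did not overlap, and the log2 fold change was 0.40 ± 0.17 (adjusted p = 0.837).

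Scn2a, a sodium channel of axon initial segments in young neurons, had 10.1 to 18.2 CPM (median 13.2) in TRAP mut and 7.69 to 14.2 CPM (median 9.69) in TRAP het libraries (0.36 ± 0.12, adjusted p = 0.897). Kcnip4 had 9.56 to 17.1 CPM (median 12.8) in TRAP mut and 7.48 to 12.6 CPM (median 9.53) in TRAP het libraries (0.34 ± 0.14, adjusted p = 1.00). Kcnmb2 had 23.7 to 41.4 CPM (median 30.4) in TRAP mut and 19.3 to 34.0 CPM (median 23.7) in TRAP het libraries, with a log2 fold change of 0.29 ± 0.13. Kcnh7 was the lower gene with the smallest p, with 1.34 to 2.08 CPM (median 1.87) in TRAP mut and 1.88 to 2.68 CPM (median 2.47) in TRAP het libraries (-0.46 ± 0.16, adjusted p = 0.935). All these ranges overlapped. Kcnh4 (0.56) and Kcnab3 (0.63) were the other named genes above zero, and Kcnj12 (-0.59), Kcnq3 (-0.38), Kcna6 (-0.33) and Cacna1b (-0.25) those below. None passed the adjusted threshold. Kcnh7 changed by 0.02 ± 0.25 in pre-TRAP RNA. Kcnh1, at 1 to 41 counts in a TRAP library, had the lowest log2 fold change of the tested channel genes in both kinds of RNA. Its values were -1.46 ± 0.55 in TRAP and -1.21 ± 0.44 in pre-TRAP RNA, and it was not called in either. This gene was named after its values were seen.

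In pre-TRAP RNA 0 of 97 channel genes were called, where 0.00455% of all 21954 genes were, and 6 had an unadjusted p under 0.05, 2 higher and 4 lower in mut, against 4.77% of all genes. DESeq2 and limma voom called 0. The median log2 fold change was -0.24 over the channel genes, with 68 of 97 below zero, and -0.03 over all genes. The het libraries were divided in the summed level of the channel genes. Libraries 17 and 19 had 296 CPM each, above all mut libraries (218 to 252 CPM), whereas libraries 23 (231 CPM) and 21 (208 CPM) were not above them. No marker was called, but list medians moved too, to -0.35 for prosensory, -0.25 for roof and stria and 0.44 for skeletal muscle markers, and their part in the channel values was not tested. Kcnmb2 had 7.79, 5.97, 8.32 and 5.90 CPM in mut libraries against 3.44, 4.88, 5.38 and 5.42 CPM in het libraries. Its 4 mut values lay above all 4 het values (0.56 ± 0.20, adjusted p = 0.837). Cacng4 had 10.8, 7.87, 8.28 and 8.96 CPM in mut against 17.6, 9.69, 20.6 and 9.35 CPM in het libraries. The ranges overlapped, with 2 het libraries well above the rest (-0.67 ± 0.26, adjusted p = 0.837). Cacnb1 (-0.60), Kcnk2 (-0.52), Kcnk6 (-0.51) and Cacna1a (-0.44) were the other named genes below zero, and Scn2b (0.30), Kcne4 (0.28) and Kcnj8 (0.26) those above. Cacnb1 overlaps the ribosomal protein gene Rpl19.

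Whether the genotype difference itself differed between TRAP and pre-TRAP RNA was tested as an interaction. In edgeR 0 of 110 channel genes and 0% of all 24242 genes were called, and 3 channel genes (Kcnk6, Kcnj9 and Kcnh2, all with positive terms) had an unadjusted p under 0.05, against 1.25% of all genes; DESeq2 and limma voom called 0. Between genotypes 1 gene of the 14 marker lists was called, lower in mut, among the 11 prosensory genes tested in TRAP. Of the 18 tested binding partners 1 was called in TRAP, Fgf13 (0.59 ± 0.11, adjusted p = 0.0352).

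The experiments were compared to give the size of a labelled batch difference beside those of genotype. In TRAP RNA, 16 of 100 channel genes were higher in experiment 2 (16.0%) and 4 lower (4.00%), where 14.1% and 8.81% of all genes were, 23% in either direction. In pre-TRAP RNA, 5 of 97 were higher (5.15%) and 2 lower (2.06%), where 9.74% and 4.97% of all genes were, 14.7% in either direction. Without the 4 mesenchyme-rich libraries, 13 were higher and 4 lower in TRAP. The genes called in both kinds with the same sign, among them Cacna1f, Hcn2, Kcnh4, Scn2a and Scn2b, were 6, or 30.0% of the 20 TRAP calls and 85.7% of the 7 pre-TRAP calls.

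**Figure D5:**
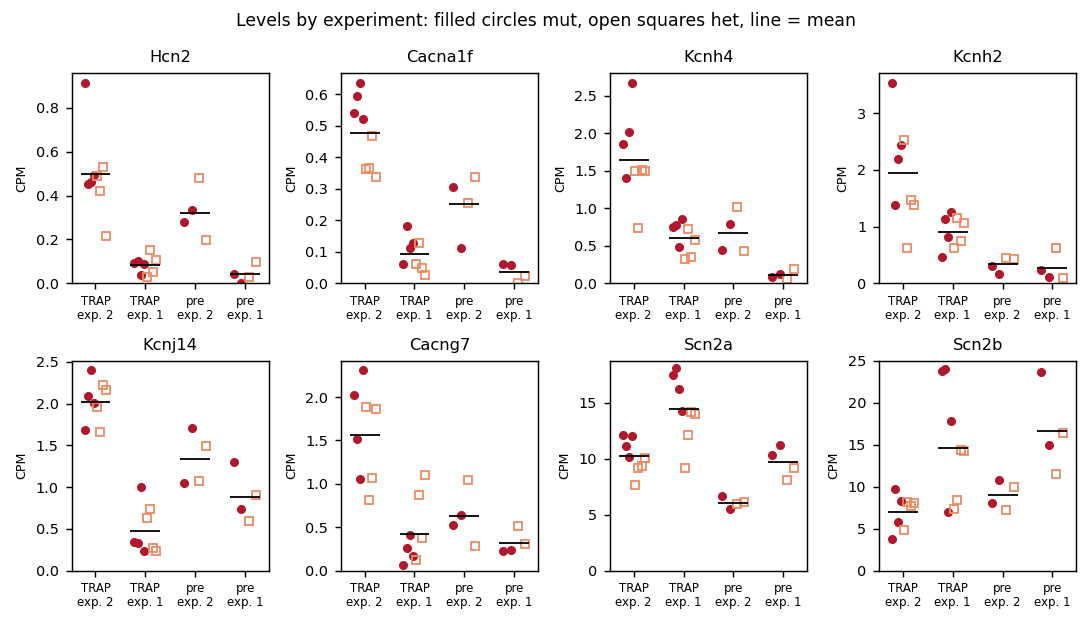
CPM of 8 channel genes in TRAP and pre-TRAP libraries of experiment 2 and experiment 1 (linear axes from 0). Filled circles are mut libraries, open squares het libraries, and lines are means. Hcn2, Cacna1f and Kcnh4 are higher in experiment 2 in both kinds of RNA, and Scn2a and Scn2b lower.

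Kcnj14, an inward rectifier, had 1.65 to 2.41 CPM (median 2.05) in TRAP libraries of experiment 2 against 0.235 to 0.996 CPM (median 0.339) in those of experiment 1. The experiments did not overlap (2.16 ± 0.29, 4.47-fold, adjusted p = 9.72e-06), and in pre-TRAP RNA the difference did not pass (0.59 ± 0.30, adjusted p = 0.209). Kcnh4 had 0.729 to 2.67 CPM (median 1.5) in experiment 2 and 0.327 to 0.855 CPM (median 0.645) in experiment 1 in TRAP (1.47 ± 0.24, adjusted p = 8.86e-05). In pre-TRAP RNA its difference was 2.54 ± 0.48 (adjusted p = 0.00309). Hcn2 (2.55 in TRAP, 2.82 in pre-TRAP) and Cacna1f, a calcium channel known from photoreceptors (2.37 in TRAP, 2.66 in pre-TRAP), had larger differences at under 1 CPM; both were named after their values were seen. Cacng7 (2.02) and Kcnh2 (1.09) were higher in TRAP, and Kcnh8 (1.20) in pre-TRAP.

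Scn2a was lower in experiment 2, with 7.69 to 12.2 CPM (median 10.1) against 9.13 to 18.2 CPM (median 14.2) in experiment 1 in TRAP (-0.46 ± 0.12, adjusted p = 0.00752). In pre-TRAP RNA its 4 libraries of experiment 2 had 5.55 to 6.65 CPM and its 4 of experiment 1 had 8.07 to 11.2 CPM, without overlap (-0.66 ± 0.17, adjusted p = 0.0178). Scn2b was lower by -0.97 ± 0.26 in TRAP (adjusted p = 0.00839) and -0.86 ± 0.21 in pre-TRAP (adjusted p = 0.0153). Cacnb4 (-0.39) and Kcnab1 (-0.35) were lower in TRAP. The call of Cacnb4 was lost without any of TRAP mut libraries 2, 6, 13, 14 and 16 or TRAP het libraries 7, 12 and 15 (adjusted p up to 0.0765), and that of Kcnab1 without TRAP mut library 10 or TRAP het library 11 (adjusted p up to 0.0548). In pre-TRAP RNA, both lower calls were lost without pre-TRAP mut library 18 or 20, that of Scn2a also without library 22 or 24 (adjusted p up to 0.0837), and that of Kcnh8 without library 20 (adjusted p = 0.0556). The summed level of the melanocyte markers separated the experiments, although most of these genes were not called. The sum was 29.9 to 69.0 CPM in experiment 2 against 1.62 to 7.52 CPM in experiment 1 in TRAP, and 294 to 473 CPM against 18.4 to 28.9 CPM in pre-TRAP libraries. Of the 3 melanocyte markers tested in TRAP 1 was called higher (median log2 fold change -0.14), and of the 7 tested in pre-TRAP 1 was called higher and 1 lower (median -0.29). Neuron markers summed to 3857 to 6630 CPM in experiment 2 and 5787 to 7495 CPM in experiment 1 in TRAP, and 4 of 16 were called lower. The part of these cell types in the channel differences was not tested.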

How the data were processed

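The authors deposited 1 table of raw read counts for Ensembl genes, not normalized, with a column for each library. Per the submitters' processing notes, STAR, DESeq2 and the build GRCm38.p5 were used; neither the counting tool nor the annotation or strand setting is known from these sources. Of 136 channel genes, 66 have a span that overlaps another annotated gene (RefSeq), and reads of overlapping genes cannot be told apart.

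Tests used edgeR 4.0.16 under R 4.3.3, after TMM scaling and the filter filterByExpr (minimum count 10 on group-by-experiment cells), with quasi-likelihood F tests and Benjamini-Hochberg adjustment over all genes tested, with experiment or genotype as covariate; calls are at an adjusted p under 0.05. SE is the log2 fold change divided by the square root of F. CPM values used TMM factors (0.801 to 1.142). DESeq2 1.42.0 and limma 3.58.1 voom were alternatives. The scripts were tested on simulated data. The deposited libraries of a group are separate pools, but no label says that they came from separate litters, so p-values measure the spread between these libraries. The 68 within-group pairs differed by more than counting error (chi-square per degree of freedom 26.3 to 261).

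The channel genes and lists were chosen with earlier results of these data known. Genes named were up to 12 in each direction by fold change in TRAP against pre-TRAP, up to 5 in each direction by unadjusted p between genotypes and up to 5 by fold change elsewhere, at a mean of at least 1 CPM, plus those known from the cochlea and, to describe each family, further members of it, chosen after their values were seen. Levels per length were not computed, so levels are not compared between genes. Some genes that this rule names are not reported here.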

Additional observations from a re-analysis of the deposited data

Results flagged for a closer look

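For 11 of 208 gene-by-group sets of libraries, 1 library stood far from the rest by Dixon's criterion, about the 1 in 20 that chance gives. Kcna6 had 26.2 CPM and Kcnma1 had 3.63 CPM in TRAP mut library 8, against 13.4 to 17.0 CPM and 1.46 to 2.14 CPM in the other TRAP mut libraries. Kcnq1 had 0.715 CPM in TRAP mut library 6, which also had the most periotic mesenchyme RNA of the TRAP libraries, against 0.181 to 0.357 CPM in the others.

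In TRAP het library 5, Kcnh6 had 1.67 CPM and Cacna1b 5.15 CPM, both the lowest of their group, against 3.45 to 5.25 CPM and 6.39 to 7.5 CPM in the others. Kcnip1 had 1.15 CPM in TRAP het library 9, against 0.173 to 0.449 CPM, and Kcnh8 had 1.24 CPM in TRAP het library 12, against 2.08 to 2.93 CPM.

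In pre-TRAP mut RNA, Scn3b had 1.75 CPM in library 22 against 2.55 to 2.61 CPM in the others, and Kcna10 had 0.0619 CPM in library 20 and no count in the others. In pre-TRAP het RNA, Kcnj12 had 0.510 CPM in library 19 against 0.0282 to 0.0845 CPM, and Kcnj16 had 1.04 CPM in library 17 against 1.78 to 1.91 CPM.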

How the results depend on the processing

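No called value of a named gene changed sign under the alternatives run, although some values that were not called did. Of TRAP against pre-TRAP calls, 50 to 63 were higher and 19 to 23 lower when each library was left out in turn, and 38 were higher in het libraries alone. Mut against het, in TRAP and in pre-TRAP, and the interaction stayed at 0 calls under every alternative run. Between experiments, TRAP calls ranged from 10 (without TRAP het library 1) to 19 higher and from 3 to 4 lower on leaving out a library; pre-TRAP calls ranged from 4 to 9 higher (9 without pre-TRAP het library 19, 8 without 23) and from 0 to 2 lower. With no filter on low counts 2 TRAP calls were lower, in mut libraries alone 1 was, and in het libraries alone 3 were higher and 0 lower, with 0 and 0 in pre-TRAP; the cause was not tested, although fewer libraries enter the last fits. Leaving out the 4 mesenchyme-rich TRAP libraries was chosen after seeing the data. No paired analysis was possible because no library number is shared between groups. Members under about 1 CPM, such as Kcna10, rest on few reads, so that a gene not called is not shown to be unchanged.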
